A study of Homo sapiens with 3 samples.

Results

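The HDAC1 summits on both arms of human chromosome 6, outside the major histocompatibility complex (MHC), were described here in HepG2 cells, a human hepatocellular carcinoma line. A summit is the single base at the top of a peak in CUT&Tag, an assay in which an antibody brings a DNA-cutting and tagging transposase to chromatin carrying the target protein. Members were taken by position alone, as every listed summit on chromosome 6 of hg19 except those from 28477797 to 33448354, the MHC. This gave 527 of the 11553 summits of the H89 library (4.56%) and 468 of the 9476 summits of the control library (4.94%), and left out 62 H89 and 45 control summits in the MHC. H89 inhibits PKA, the protein kinase that cAMP activates. The H89 library came from HepG2 cells of genotype WT labelled +H89 and the control library from HepG2 cells of genotype WT labelled -H89, with 1 library each. An IgG library of WT cells labelled -H89 was not analysed here. At the start of the MHC the last summits kept were at 28351373 (H89, score 5.49) and 28367396 (control, 3.45), and the first left out at 28555193 (H89, 5.49) and 28555195 (control, 5.50). At its end the last left out were at 33393954 (H89, 4.76) and 33422161 (control, 2.97), and the first kept at 33547894 (H89, 4.76) and 33548194 (control, 4.77). The labels state neither the dose nor the duration of H89, and HDAC1 is named in the series title and design only.

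HDAC1 is a histone deacetylase that works as a subunit of corepressor complexes such as NuRD, Sin3 and CoREST, and is commonly found at active as well as silenced regulatory DNA. The short arm of chromosome 6 carries the major cluster of replication-dependent histone genes, which supply the core and linker histones during DNA synthesis, are mostly intronless and within a family are near-identical copies. The cluster also holds many transfer RNA genes and the butyrophilin genes, which encode membrane proteins of the immunoglobulin family. The histone gene window is taken here as positions 26000000 to 27900000.

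Each summit carries the authors' score, read as the −log10 of a p-value, so a higher score is a stronger peak within its list. Depth is unknown, since neither list gives read totals. With 1 library per condition there is no replicate check and no test of H89 against the control. All intervals are exact at 95% and reflect counting error alone. Those of H89 to control ratios take the lists as separate samples, although most summits recur in both. The scores also show how little signal lies under a typical summit. On chromosome 6 outside the MHC, 359 of 527 H89 summits (68.1%) and 323 of 468 control summits (69.0%) had a score equal, within 0.001, to a Poisson tail for 2 to 7 counts over 1 of 2 fitted background means. Summits at 5 counts or fewer made up 62.4% of the H89 and 65.4% of the control summits. At the first mean, H89 scores of 3.44, 5.49, 7.66 and 9.92 stand for 2, 3, 4 and 5 counts, and the matching control scores are 3.45, 5.50, 7.67 and 9.94. A score difference of about 2 at such sites is therefore 1 count under this reading.

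The histone gene cluster is the stretch in which paired scores had another balance than elsewhere on the arms, so promoters of its genes are shown. In the gene order of RefSeq (GRCh38.p14), the stretch from H1-1 to H2BC17 holds 227 genes, of which 68 are protein-coding and 53 of those are histone genes. These are 6 H1, 11 H2A, 14 H2B, 10 H3 and 12 H4 genes, and 98 transfer RNA genes lie among them. RefSeq promoters, from 250 bases before to 50 after the gene start, were found for 48 of the 53 histone genes, as 52 entries. The letters CCAAT, on either strand, occurred in 45 of the 52 entries (86.5%), against 34.6% of all 35116 promoters in the table. TATAAA, on either strand, occurred in 34 of the 52 (65.4%), against 11.5% of all promoters. The H4 genes were apart, with CCAAT in 3 of 10 entries, against every entry of the H1, H2A, H2B and H3 genes. Divergent neighbours share promoter DNA, so these matches are not independent of each other. The first H3, H4 and H2B genes of the cluster with an entry are shown 5′ to 3′ on the gene's strand (GRCh38.p14: H3C1 at chr6:26020201-26020500, plus strand, H4C2 at chr6:26027234-26027533, minus strand, and H2BC3 at chr6:26043664-26043963, minus strand), with CCAAT and TATAAA of either strand in capitals.
H3C1: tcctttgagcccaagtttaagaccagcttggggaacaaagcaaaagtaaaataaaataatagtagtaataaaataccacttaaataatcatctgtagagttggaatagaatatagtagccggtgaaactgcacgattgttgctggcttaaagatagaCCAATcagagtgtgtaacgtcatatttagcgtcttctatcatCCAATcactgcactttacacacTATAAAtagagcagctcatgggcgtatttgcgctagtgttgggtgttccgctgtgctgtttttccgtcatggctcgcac
H4C2: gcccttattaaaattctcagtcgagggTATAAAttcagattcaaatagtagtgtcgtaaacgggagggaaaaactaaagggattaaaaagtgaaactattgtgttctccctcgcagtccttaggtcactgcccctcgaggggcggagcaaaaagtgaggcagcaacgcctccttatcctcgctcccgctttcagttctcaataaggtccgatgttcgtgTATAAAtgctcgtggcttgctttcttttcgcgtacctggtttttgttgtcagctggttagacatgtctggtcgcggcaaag
H2BC3: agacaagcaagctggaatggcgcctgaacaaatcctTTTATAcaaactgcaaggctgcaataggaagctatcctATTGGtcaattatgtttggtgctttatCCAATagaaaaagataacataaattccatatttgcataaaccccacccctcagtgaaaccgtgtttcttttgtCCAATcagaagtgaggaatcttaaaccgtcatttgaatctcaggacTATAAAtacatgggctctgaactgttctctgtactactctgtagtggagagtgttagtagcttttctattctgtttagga
H4C2 held TATAAA and no CCAAT, while H3C1 and H2BC3 held both. These are GRCh38 positions and the summits are in hg19, so single summits were not assigned to these promoters.

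The only gene of the chromosome 6 arms outside the MHC that an hg19 annotation placed beside summits was SRPK1, which encodes a kinase of serine/arginine-rich splicing factors. That annotation is a small sample of genes, and within 5 kb of its other gene outside the MHC, the antisense RNA TFAP2A-AS1, neither list had a summit. SRPK1 lies on the minus strand of hg19 chromosome 6 from 35800811 to 35888957, with 3 annotated starts between 35888818 and 35888957. The H89 library had a summit at 35888693 (score 5.49), 125 bp inside the gene from the nearest start, and the control library one at 35888750 (score 5.50), 68 bp inside. Depending on the transcript, both fall in an exon or an intron. The H89 list had a further summit at 35887838 (score 3.44), in an intron 980 bp inside the gene. The paired SRPK1 scores stand for 3 counts in each library. The RefSeq promoter of SRPK1 (GRCh38.p14, chr6:35921049-35921348, minus strand) is shown with the 50 bases from the gene start on in capitals. By the hg19 starts, the summits lie on that side but farther in, so the capitals do not mark a summit.
SRPK1: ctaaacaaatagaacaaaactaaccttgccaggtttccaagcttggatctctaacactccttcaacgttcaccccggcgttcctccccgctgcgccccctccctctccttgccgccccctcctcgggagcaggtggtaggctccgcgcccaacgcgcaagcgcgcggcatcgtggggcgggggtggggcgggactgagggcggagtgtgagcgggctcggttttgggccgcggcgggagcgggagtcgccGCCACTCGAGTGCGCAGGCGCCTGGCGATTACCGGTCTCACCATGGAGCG
It had a GC content of 67.0%, against a median of 58.7% over all promoters of the table, and held neither CCAAT nor TATAAA. The cluster's histone promoters had a median GC content of 42.3%.

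The short arm held HDAC1 summits more densely than the long arm in both libraries. Outside the MHC, the short arm had 300 H89 and 257 control summits on 56.0 Mb, and the long arm 227 H89 and 211 control summits on 110.1 Mb. In the H89 library this is 5.35 per Mb on the short arm (interval 4.77 to 6.0) and 2.06 per Mb on the long arm (1.80 to 2.35). In the control library it is 4.59 per Mb on the short arm (4.04 to 5.18) and 1.92 per Mb on the long arm (1.67 to 2.19). The short to long arm ratio of densities was 2.60 with H89 (2.18 to 3.10) and 2.39 in the control (1.99 to 2.89). Without the histone gene window it was 2.34 with H89 (1.95 to 2.81) and 2.08 in the control (1.71 to 2.53). Among the 18 chromosomes with at least 20 summits of each list on both arms, chromosome 6 had the largest such ratio in both libraries. Relative to gene number the arms were closer. The short arm outside the MHC holds 438 protein-coding genes in the RefSeq order and the long arm 439, with the arms divided between PRIM2 and KHDRBS2 and the MHC taken from GPX6 to ZBTB9. The short arm had 0.685 H89 and 0.587 control summits per coding gene, and the long arm 0.517 H89 and 0.481 control. The short to long arm ratio per gene was 1.32 with H89 (1.11 to 1.58) and 1.22 in the control (1.01 to 1.47).

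**Figure D1:**
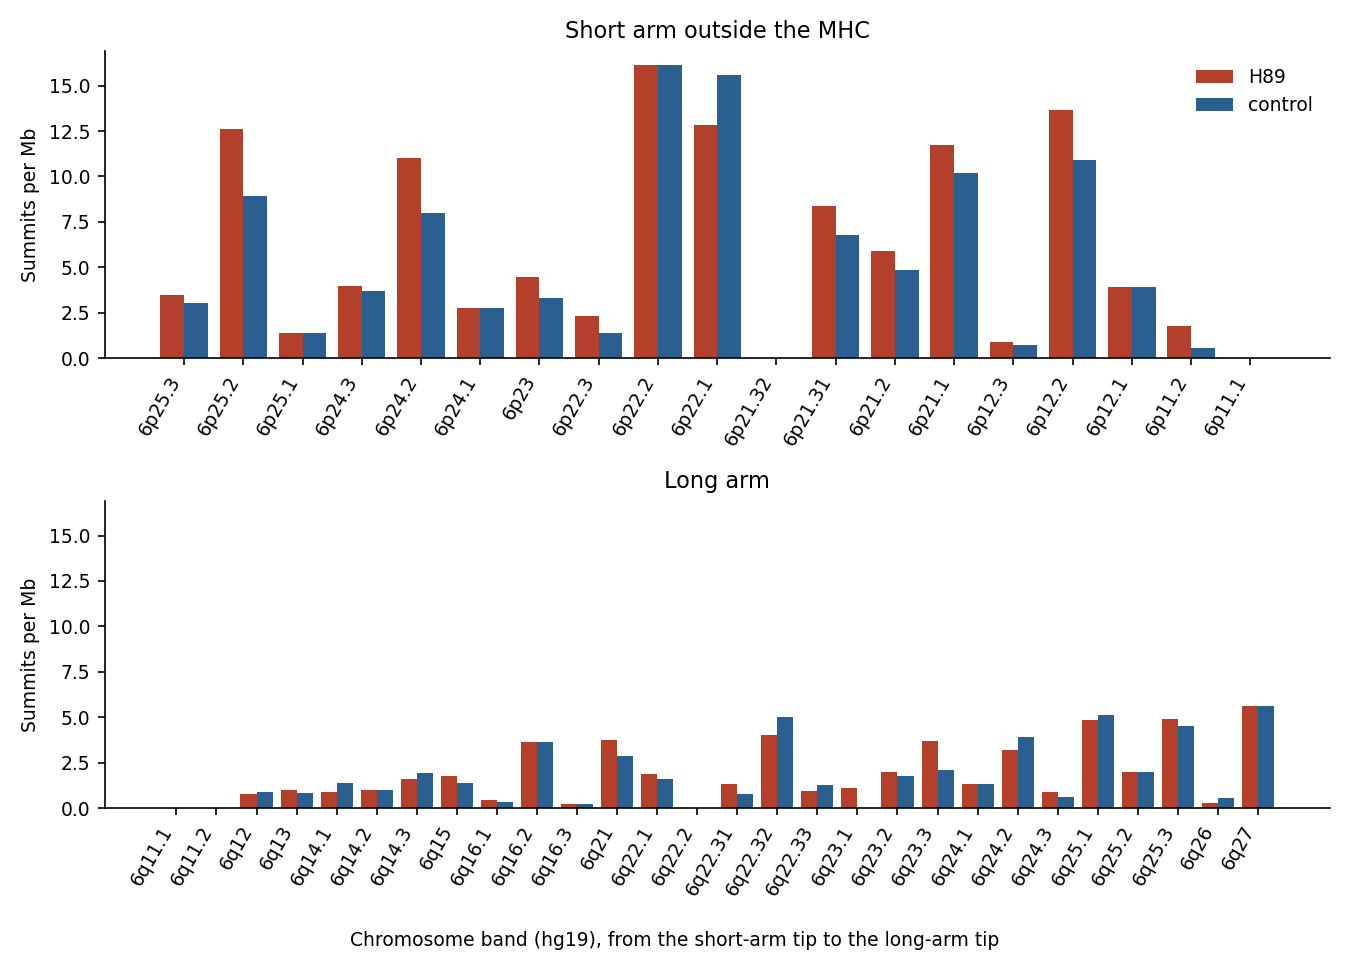
HDAC1 summits per Mb (y axis) in each band of the short arm outside the MHC and of the long arm (x axis), in the H89 and the control library. The 2 bands of the histone cluster, 6p22.2 and 6p22.1, had over 12 summits per Mb in both libraries, and no long-arm band reached 6 per Mb. Outside the cluster, 6p12.2 (13.6 with H89, 10.9 in the control) and 6p25.2 (12.6 with H89, 8.95 in the control) also had over 12 per Mb with H89.

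The densest short-arm band was 6p22.2, with 29 summits in each library, or 16.1 per Mb. By number of H89 summits, 6p21.1 led with 67 H89 and 58 control summits, followed by 6p22.2, by 6p21.31 with 26 H89 and 21 control, by 6p25.2 with 24 H89 and 17 control, and by 6p21.2 and 6p22.3 with 23 H89 summits each, against 19 and 14 in the control. In the control, 6p22.1, a darker band of the histone cluster, came next after 6p22.2, with 19 H89 and 23 control summits. Of the 6 bands leading with H89, all but 6p22.3 are pale in Giemsa staining, and 6p22.3 was sparse, at 2.30 H89 and 1.40 control summits per Mb. On the long arm the most H89 summits lay in 6q27 at the tip, with 37 in each library. The bands 6q21 (34 H89 and 26 control), 6q25.3 (27 H89 and 25 control), 6q25.1 (17 H89 and 18 control) and 6q23.3 (14 H89 and 8 control) followed. Bands that are pale in Giemsa staining made up 51.9% of the short arm's length and held 74.3% of its H89 and 72.8% of its control summits. On the long arm they made up 42.3% of the length and held 71.8% of H89 and 69.7% of control summits. No summit lay in the centromeric bands of either arm.

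Long stretches of chromosome 6 had no HDAC1 summit in either list. The longest on the long arm ran from 91296948 to 96969953 (5.67 Mb), from 6q15 into 6q16.1. A second ran from 101329124 to 105851250 (4.52 Mb), from 6q16.3 into 6q21, and a further one from 75953392 to 79577398 (3.62 Mb) in 6q14.1. On the short arm the longest, 57182219 to 61000000 (3.82 Mb), reached the centromere. The next were 21593965 to 24505037 (2.91 Mb) in 6p22.3 and 53659528 to 56252605 (2.59 Mb) in 6p12.1. Close neighbours were counted within each list. A neighbour of the same list within 5 kb was present for 27.0% of H89 and 23.3% of control summits there, and for 17.6% of H89 and 18.5% of control summits on the long arm, against 24.6% of all H89 and 21.2% of all control summits. The intervals of the arms overlap in both libraries, at 22.1 to 32.4 on the short and 12.9 to 23.2 on the long arm with H89, and at 18.3 to 29.0 on the short and 13.5 to 24.4 on the long arm in the control.

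Both arms listed more summits with H89 than without, by less than the series as a whole. The H89 to control ratio was 1.17 on the short arm (interval 0.985 to 1.38) and 1.08 on the long arm (0.888 to 1.30), and both intervals include 1. For the short arm this depended on its limits, since the ratio was 1.21 (1.01 to 1.45) without the histone gene window and 1.199 (1.03 to 1.40) with the MHC kept. Over the rest of the series it was 1.22 (1.19 to 1.26). Of the 42 chromosome arms with at least 20 summits in each list, 6q had the lowest ratio and 6p ranked 34. The ratio of these ratios, short against long arm, was 1.08 (0.838 to 1.41), and that of both arms against the rest of the series was 0.920 (0.808 to 1.05), so neither difference went beyond counting error. With 1 library each, H89 and any difference in depth or library making cannot be told apart. By band, 12 of 19 short-arm bands had more H89 summits, 1 had fewer and 6 had equal numbers. On the long arm 11 of 28 had more, 8 fewer and 9 equal numbers. Of the bands with equal numbers, 2 on the short and 3 on the long arm had no summit in either list. The only short-arm band with fewer was 6p22.1 (19 H89 and 23 control), next to 6p22.2 with its equal numbers.

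Most summits of either arm were shared between the libraries, and the arms were not told apart in this. On the short arm, a control summit lay within 1000 bp of 227 of 300 H89 summits (75.7%, interval 70.4 to 80.4), and on the long arm of 173 of 227 (76.2%, 70.1 to 81.6), against 72.2% of all H89 summits. Of the control summits, 224 of 257 (87.2%, 82.4 to 91.0) on the short arm and 177 of 211 (83.9%, 78.2 to 88.6) on the long arm had an H89 partner, against 87.6% of all control summits. The odds ratio of having a partner, short against long arm, was 0.971 for H89 (0.634 to 1.48) and 1.30 for control summits (0.75 to 2.27). These intervals leave room for differences of sharing in either direction. Sharing was most frequent at high scores. Among H89 summits scoring from 2 up to 3, 35 of 58 on the short arm (60.3%, 46.6 to 73.0) and 16 of 35 on the long arm (45.7%) had a partner. The share of all H89 summits in that range was 45.9%. From 3 up to 4, 31 of 66 on the short arm (47.0%, 34.6 to 59.7) and 27 of 47 on the long arm (57.4%) had one, against 56.0% of all H89 summits there. The short-arm intervals of these classes overlap. All 34 short-arm and all 25 long-arm H89 summits scoring 10 or more had one, against 98.8% of all such H89 summits. The median score of H89 summits without a partner was 3.44 on both arms, and that of control summits without a partner was 3.45 on both arms, a peak of 2 counts in either list. Mutually nearest summits, called pairs below, lay a median of 46.0 bp apart on the short arm and 68.0 bp apart on the long arm.

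**Figure D2:**
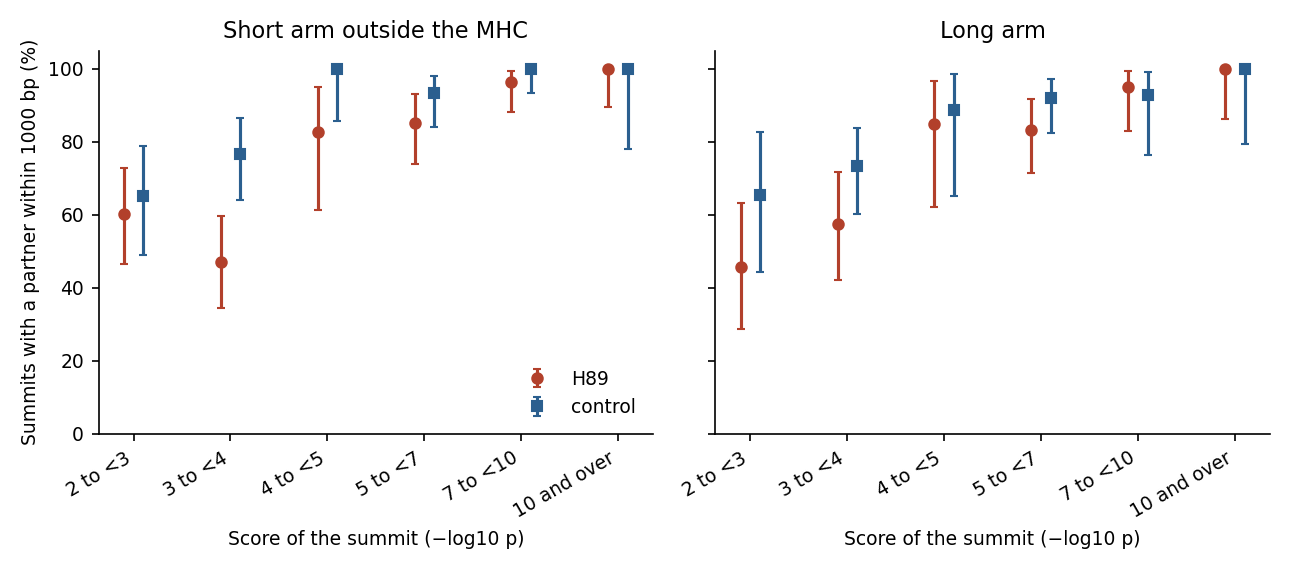
Share of summits with a summit of the other library within 1000 bp (y axis, percent, with exact 95% intervals) by the summit's own score (x axis, −log10 p), for the H89 and the control library on each arm. Every summit scoring 10 or more had a partner on both arms, and H89 summits scoring from 3 up to 4 had one in 47.0% of cases on the short and 57.4% on the long arm. Over all H89 summits of the series, the shares were 98.8% at 10 or more and 56.0% from 3 up to 4.

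Scores were close on the arms. The median H89 score was 5.38 on the short and 5.49 on the long arm, and the median control score 5.08 on the short and 5.30 on the long arm. At 10 or more there were 34 H89 summits on the short arm (11.3%) and 25 on the long arm (11.01%), against 9.89% of all H89 summits. In the control there were 15 on the short arm (5.84%) and 16 on the long arm (7.58%), against 6.49% of all control summits. The H89 to control ratio of these summits was 2.27 on the short arm (1.2 to 4.48) and 1.56 on the long arm (0.802 to 3.13), with intervals that overlap widely. Over all summits of the series scoring 10 or more it was 1.86 (1.68 to 2.05), inside the intervals of both arms. Compared with the rest of the series, both arms together held more summits scoring 5 or more, with odds ratios of 1.32 for H89 (1.10 to 1.58) and 1.45 for control summits (1.2 to 1.75). The shares were 52.8% against 45.9% with H89, and 50.6% against 41.5% in the control. At 10 or more the odds ratios were 1.16 (0.860 to 1.53) and 1.02 (0.680 to 1.49), within counting error. A peak of 3 counts scores 5.49 at the first and 4.76 at the second background mean with H89, and 5.50 and 4.77 in the control. The share at 5 or more therefore also depends on which mean applies.

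The strongest site of chromosome 6, in 6q27, is also the highest in either full list. Its H89 summit at 169240719 scored 133.1 and its control summit at 169240780 scored 76.5. No other site of either arm came near it. The next long-arm pairs by mean score lay in 6q21 at 111136989 (22.24 with H89 and 19.7 in the control), in 6q24.1 at 142468475 (24.8 with H89 and 14.7 in the control), in 6q25.3 at 160211018 (19.7 with H89 and 17.2 in the control) and in 6q27 at 170863179 (22.24 with H89 and 12.3 in the control). All 5 scored higher with H89. Positions are those of the H89 summit here and below.

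The strongest short-arm pairs by mean score were mixed in direction. In 6p25.1, at 5004119, the score was 29.5 with H89 and 24.6 in the control. In 6p22.3, at 24775425, it was 24.8 with H89 and 19.7 in the control. In 6p25.2, the pair at 2841949 scored 19.7 with H89 and 14.7 in the control. The nearby pair at 2876898 was equal, at 17.2 in each. In 6p24.2, at 11094150, the order was the other way, with 19.7 under H89 and 22.3 in the control.

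Of the 221 short-arm pairs, 90 scored higher with H89 by more than 0.1 (40.7%, interval 34.2 to 47.5) and 47 higher in the control (21.3%, 16.1 to 27.3). Of the 171 long-arm pairs, 92 scored higher with H89 (53.8%, 46.0 to 61.4), against 24 in the control (14.0%, 9.20 to 20.2). Over all 8189 pairs of the series 50.2% scored higher with H89, against 14.5% in the control. The short arm was therefore less one-sided than the long arm, with an odds ratio of 0.501 (0.269 to 0.915) for higher with H89 against higher in the control. Among 42 chromosome arms, 6p ranked 41 for the share of pairs higher with H89 and 6q ranked 8. This contrast rests in part on the histone gene window. Without the window the short arm had 84 pairs higher with H89 against 32 higher in the control out of 185, and the odds ratio against the long arm was 0.686 (0.355 to 1.31).

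**Figure D3:**
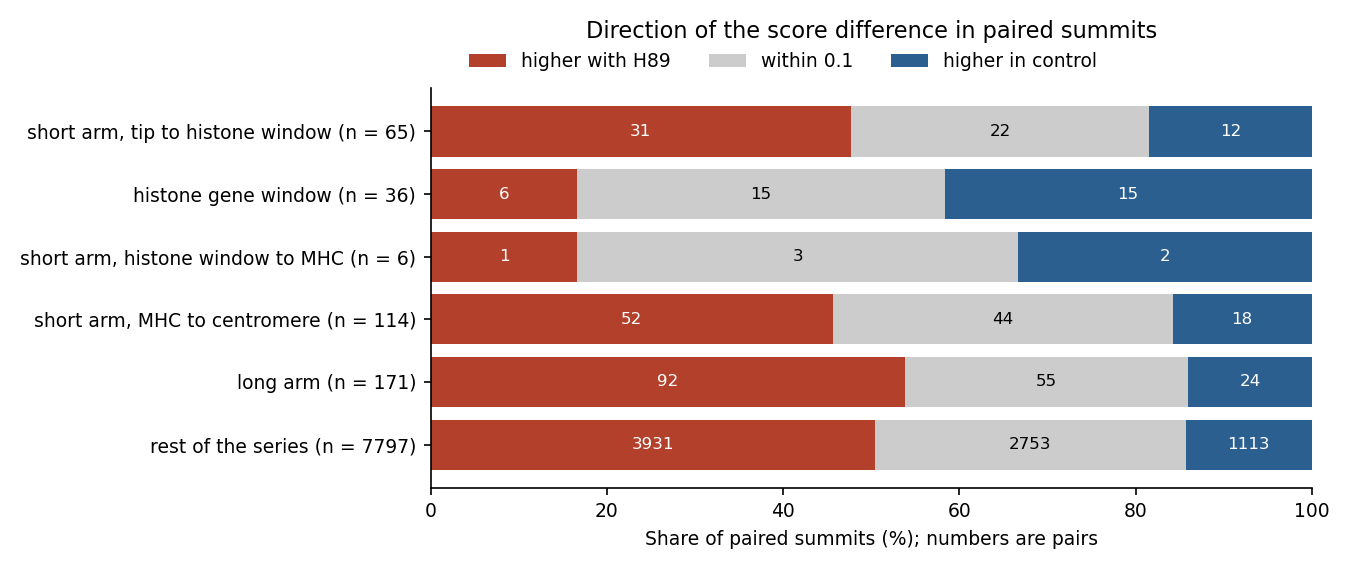
Share of paired summits (x axis, percent) scoring higher with H89 by more than 0.1, within 0.1, or higher in the control by more than 0.1, for the segments of chromosome 6 and the rest of the series; numbers in the bars are pairs. In the histone gene window 6 of 36 pairs scored higher with H89 and 15 in the control, while the rest of the series had 3931 higher with H89 against 1113 higher in the control.

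The histone gene window had the opposite balance to the rest of the chromosome. It held 39 H89 and 41 control summits on 1.90 Mb, or 20.5 per Mb with H89 (interval 14.6 to 28.1) and 21.6 per Mb in the control (15.5 to 29.3). That is 6.91 times the density of the other parts of the arms in the H89 library (4.85 to 9.58) and 8.30 times in the control library (5.87 to 11.5). Divided by the 68 protein-coding genes from H1-1 to H2BC17, the window had 0.574 H89 and 0.603 control summits per gene. The ratio per gene to the long arm was 1.11 with H89 (0.769 to 1.56) and 1.25 in the control (0.875 to 1.76), so neither went beyond counting error. These values per gene are approximate, since the summits are cut by hg19 positions and the genes by their order in GRCh38, as is also the case for the arms. The H89 to control ratio was 0.951 (0.598 to 1.51). Of the 36 pairs, 6 scored higher with H89 (16.7%, 6.37 to 32.8), 15 higher in the control (41.7%, 25.5 to 59.2), and 15 were within 0.1. Among the untied pairs of the window 28.6% were higher with H89 (11.3 to 52.2). Even numbers in both directions are therefore still within counting error. On the arms outside the window, 176 of 356 pairs scored higher with H89 (49.4%), against 56 in the control (15.7%). The odds ratio of the 2 directions, window against the rest of the arms, was 0.129 (0.0389 to 0.371). Its interval covers counting error only and does not test H89.

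The window's peaks were mostly found in both libraries. With H89, 37 of 39 summits had a partner (94.9%, interval 82.7 to 99.4), against 363 of 488 on the other parts of the arms (74.4%), an odds ratio of 6.36 (1.60 to 55.2). In the control, 37 of 41 had one (90.2%, 76.9 to 97.3), against 364 of 427 (85.2%), an odds ratio of 1.60 (0.546 to 6.39). At 10 or more there were 0 of 39 summits with H89 and 0 of 41 in the control, against 59 of 488 with H89 and 31 of 427 in the control on the other parts of the arms. A count of 0 allows a share of up to 7.69% with H89 and 7.32% in the control by the limit of 3 counts, and up to 9.03% with H89 and 8.604% in the control by the exact interval. The odds ratio against the other parts of the arms had an interval of 0 to 0.747 with H89 and of 0 to 1.28 in the control, so the 0 of the control was within counting error. The highest scores were 9.92 with H89 and 9.94 in the control, and the medians 4.76 and 4.77. In each class of mean score, more window pairs scored higher in the control than with H89. Pairs from 2 up to 4 were higher with H89 in 0 and in the control in 5 of 13 cases, pairs from 4 up to 6 in 3 and 5 of 11, and pairs from 6 up to 10 in 3 and 5 of 12. On the arms outside the window the same classes gave 16 and 16 of 78, 53 and 22 of 122, and 68 and 14 of 108. The rest of the short arm alone gave 6 and 8 of 40, 24 and 10 of 55, and 33 and 10 of 61. Its lowest class thus also had more pairs higher in the control.

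**Figure D4:**
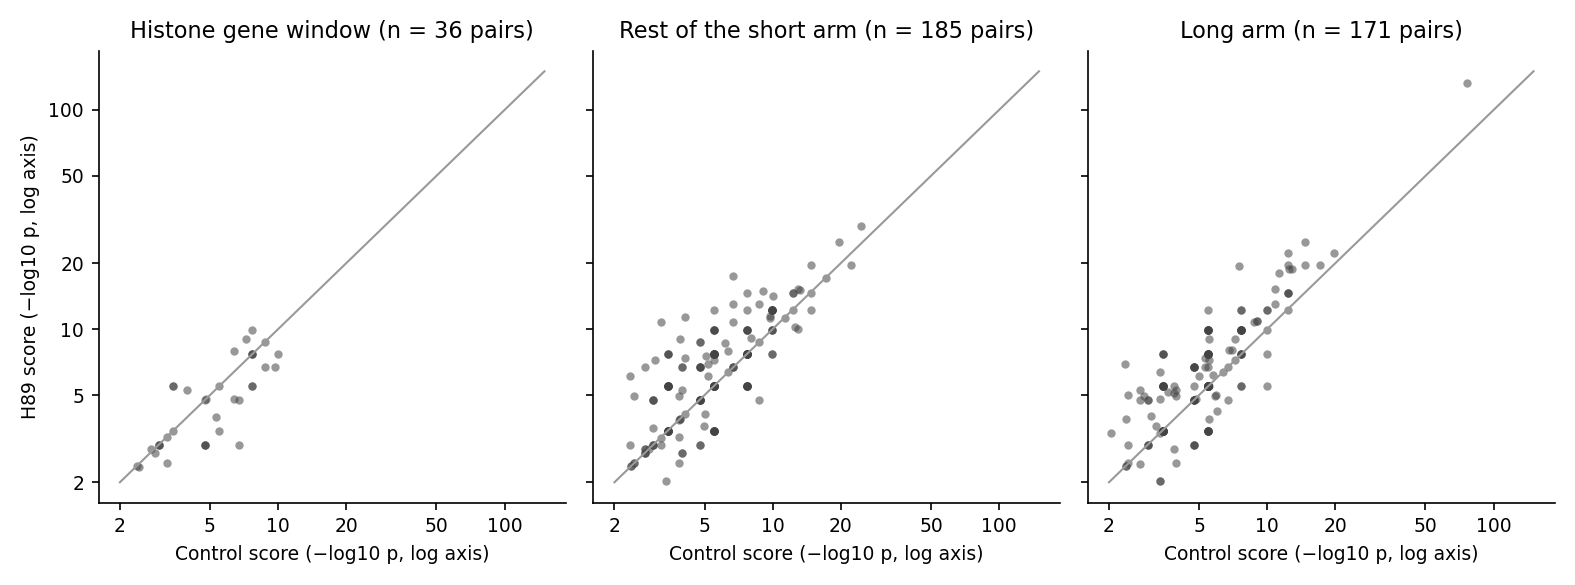
Score with H89 (y axis) against score in the control (x axis), both −log10 p on log axes, for each pair of the histone gene window, of the other short arm and of the long arm; the line marks equal scores. Points of the window stay below a score of 10 and lie on or below the line in most cases, while the highest long-arm point is the 6q27 site at 133.1 with H89 and 76.5 in the control.

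Window sites higher in the control scored up to 9.94 there. The pair at 26027266 scored 4.76 with H89 and 6.70 in the control. At 26033711 the scores were 7.66 with H89 and 9.94 in the control. The pair at 26124256 scored 6.68 with H89 and 9.71 in the control. All 3 lie at the telomere side of the cluster. Further along, 26189250 and 26216943 each had 5.49 with H89 and 7.67 in the control. Between them, 26199744 had 4.81 with H89 and 6.37 in the control. The largest gap was at 26365523, with 2.96 under H89 and 6.70 in the control. Farther toward the centromere, 26597131 had a smaller gap, with 3.44 under H89 and 5.50 in the control. Beyond the midpoint only 27806195 (6.68 with H89, 8.72 in the control) and 27860899 (3.95 with H89, 5.30 in the control) joined this group among sites scoring 5 or more in either list.

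Sites of the window higher with H89 were fewer and lay on both sides of its midpoint. The highest was 26659778, with 9.92 under H89 and 7.67 in the control. The pairs at 26474354 and 27640045 both had 5.49 with H89 and 3.45 in the control. Near the far end of the cluster, 27792028 had 7.98 with H89 and 6.37 in the control, and 27799160 had 9.02 with H89 and 7.23 in the control. The pair nearest the telomere was 26157766, at 5.28 with H89 and 3.97 in the control. Equal pairs scoring 5 or more lay at 26032310, 26204923 and 27100710, with 7.66 under H89 and 7.67 in the control in each case. Another was 26104373 with 5.49 under H89 and 5.50 in the control, and 26285998 had 8.71 with H89 and 8.72 in the control. Together these are the 21 pairs of the window that scored 5 or more in either list, 6 of them higher with H89, 10 higher in the control and 5 equal.

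The direction was uneven along the window. Of the 25 pairs up to its midpoint, 3 scored higher with H89 and 13 in the control. Of the 11 beyond it, 3 scored higher with H89 and 2 in the control. By band, 6p22.2 had 3 pairs higher with H89 against 13 higher in the control, and 6p22.1 had 4 in each direction. These parts were drawn after the values were seen. The differences were small in counts. Of 23 window pairs on a step of the same background mean in both lists, 10 were lower with H89, 3 higher and 10 equal, and 12 of the 13 unequal ones differed by exactly 1 count. The other 8 window summits had no one-to-one partner, 3 with H89 and 5 in the control, with scores from 2.38 to 4.76. The histone genes of a family are near-identical copies, and the sources used here do not say how reads mapping to several copies were placed. Its part in these values was not tested.

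**Figure D5:**
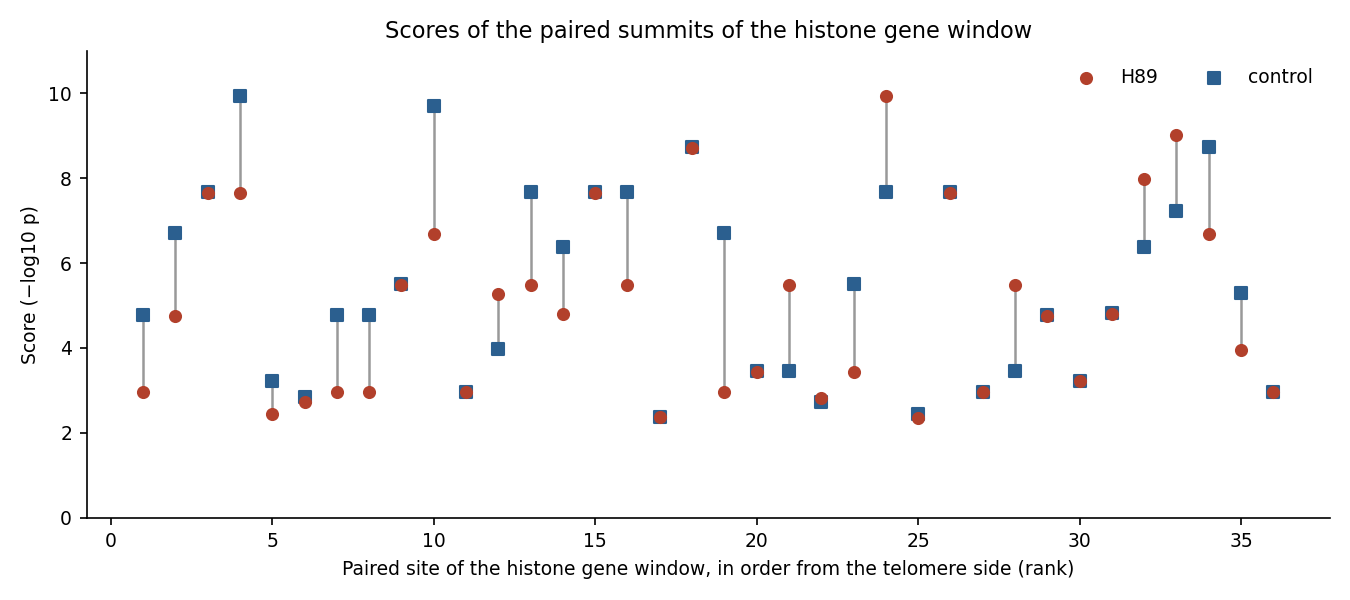
Score (y axis, −log10 p) with H89 and in the control at each of the 36 paired sites of the histone gene window, ordered from the telomere side (x axis, rank); grey lines join the scores of a pair. Of the 36 sites, 6 scored higher with H89, 15 in the control and 15 were within 0.1.

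The window was then set beside stretches of equal length elsewhere. The primary chromosomes were cut into fixed tiles of 1.90 Mb, and 80 had at least 20 pairs. The window spans a pair of tiles. The tile up to 26600000 was among the 80, with 4 pairs higher with H89 and 13 in the control out of 26. The next tile, up to 28500000, had 19 pairs and was left out by the minimum, with 5 pairs higher with H89 and 4 in the control. In none of the other 79 tiles was the number of pairs higher in the control above the number higher with H89. Their share higher in the control had a median of 13.6% and a maximum of 35.0%, against 41.7% in the window. Their share higher with H89 had a median of 52.2% and a minimum of 30.8%, against 16.7% in the window. The ratio of summit numbers was less unusual, with 5 of the 79 at or below the window's 0.951. The tiles were compared after the values of the window were seen, so this is a description.

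The short-arm segments around the cluster did not share its direction, or held too few pairs to tell. From the tip to the window there were 99 H89 and 75 control summits (ratio 1.32, interval 0.968 to 1.81), with 31 pairs higher with H89 against 12 higher in the control. From the MHC to the centromere there were 155 H89 and 131 control summits (ratio 1.18, 0.932 to 1.50), with 52 pairs higher with H89 against 18 higher in the control. Between the window and the MHC there were 7 H89 and 10 control summits and only 6 pairs, 1 higher with H89 against 2 higher in the control. In the MHC itself, 29 of 43 pairs scored higher with H89, against 3 that scored higher in the control.

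Single sites of the short arm differed by larger amounts than those of the histone window. The largest excess with H89 was in 6p21.2 at 37070520, with 17.5 under H89 and 6.70 in the control. In 6p21.1, at 41487492, the scores were 10.8 with H89 and 3.23 in the control. A site in 6p22.3 at 20401914 had 11.3 with H89 and 4.08 in the control. Each of these differences exceeds every one in the opposite direction on the arm. They were followed by 6p25.2 at 3840735 (14.7 with H89, 7.67 in the control) and 6p23 at 13605375 (12.3 with H89, 5.50 in the control). The largest excess in the control was in 6p22.3 at 21551903, with 4.76 under H89 and 8.72 in the control. Next came the window sites 26365523 and 26124256, then 6p21.1 at 43238109 (9.97 with H89, 12.9 in the control) and the 6p24.2 site at 11094150.

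On the long arm the largest excess with H89 was larger still. After the 6q27 site, the largest difference was in 6q25.3 at 160183220, with 19.4 under H89 and 7.53 in the control. The sites in 6q24.1 and 6q27 given above followed, then 6q25.3 at 157744412 (19.7 with H89, 12.3 in the control). In the other direction, 6q21 at 110012457 had 5.49 with H89 and 9.94 in the control. A site in 6q23.3 at 138028977 had 7.66 with H89 and 9.94 in the control. The pairs in 6q24.2 at 143718563 and in 6q25.1 at 149867144 each had 5.49 with H89 and 7.67 in the control, and 6q16.2 at 99968992 had 3.44 with H89 and 5.50 in the control. Apart from 6q21, each of these is 1 count apart under the reading above.

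The highest-scoring summits listed in 1 library alone stayed below 10. On the long arm, H89 summits without a control partner reached 9.92 in 6q21 at 109804610, 42.4 kb from the nearest control summit, and 9.92 in 6q27 at 171022297, 128 kb away. The third scored 6.68 in 6q27 at 170229206. On the short arm they reached 8.64 in 6p21.1 at 44224865, 7.66 in 6p21.2 at 36997303 and 5.49 in 6p25.2 at 3403673. Control summits without an H89 partner reached 9.94 in 6q25.3 at 160555568, 155 kb from the nearest H89 summit, and 9.94 in 6q27 at 170199856, where an H89 summit lay 1.31 kb away, just outside the pairing distance. The third on the long arm scored 5.50 in 6q12 at 67805661. On the short arm they reached 6.70 in 6p21.1 at 43469646, 5.50 in 6p23 at 13542418 and 5.50 in 6p22.1 at 28072728. Each list holds only calls past a threshold, so a single listing does not show that signal was lacking in the other library.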

How the data were processed

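CUT&Tag was run on HepG2 cells with and without H89, per the labels, and read processing used Bowtie 0.12.2 and hg19, per the submitters' processing notes. The sources used here name no peak caller, threshold or peak-calling control, and do not describe how duplicate and multi-mapping reads were treated. The lowest scores of the full lists were 2.02 with H89 and 2.03 in the control, so the lists reach down to weak peaks. The authors deposited 1 list of 1-bp summits per HDAC1 library, assigned by peak names that match the sample titles. Scores in the deposited lists were taken as −log10 p-values, from its match to Poisson tails.

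Positions are 1-based hg19, with bands from circlize 0.4.16. Partners lie within 1000 bp, pairs are mutually nearest summits, and differences up to 0.1 are ties. Intervals are Clopper-Pearson or exact Poisson, and odds ratios have exact conditional intervals. Bands and sites named were ranked by number, score or difference. The members, lists and rules were chosen with earlier results of these data known. Functions were tested on simulated data. RefSeq tables of GRCh38.p14 gave gene names, order and promoters only, and a sample of hg19 known genes in GenomicFeatures 1.54.1 placed SRPK1. Alternatives were minimum scores, pairing distances, merging, ties and region limits. Calculations used scipy 1.17.1 and pandas 2.3.3 under Python 3.11.15, and plots matplotlib 3.10.9.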

Additional observations from a re-analysis of the deposited data

How the results depend on the processing

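Of 130 values recomputed under 12 alternatives, 109 stayed inside the interval of the reported value and 21 did not. Direction was scored only for the shares of untied pairs higher with H89, and 0 of those changed it. Requiring a score of 5 or more moved 10 of 20. The median score became 7.66 with H89 and 7.67 in the control on the short arm, 7.36 with H89 and 5.51 in the control on the long arm, and 7.17 with H89 and 7.67 in the control in the histone gene window. Higher medians are what the higher minimum itself entails. The short arm then had the higher median of the arms in both libraries, the other way round from the order without this minimum. The share of untied pairs higher with H89 became 74.6% on the short arm, 93.2% on the long arm and 37.5% in the window (8.52 to 75.5). At a minimum score of 3 it was 40.0% in the window (16.3 to 67.7). The window's interval included even numbers in both directions as reported and under every alternative but 1. That was band 6p22.2 in place of the window (18.8%, 4.05 to 45.6). In the window 81.2% of H89 and 72.2% of control summits then had a partner. With a partner required within 100 bp, the shares with one were 55.3% (H89) and 64.6% (control) on the short arm, 51.1% and 54.98% on the long arm, and 66.7% and 63.4% in the window. On the identical base they were 1.33% and 1.56% on the short arm and 0.881% and 0.948% on the long arm. Within 2000 bp, 100% of H89 summits of the window had one. The short to long arm density ratio and the H89 to control ratios stayed inside their intervals under every alternative run on them, although the short-arm H89 to control ratio had an interval above 1 without the histone gene window (1.01 to 1.45) and with the MHC kept (1.03 to 1.40). No paired analysis was possible because each condition has 1 library, which also prevents leaving a replicate out. Unknown depth, peaks of few counts and single libraries limit all values.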
